A study of Homo sapiens with 6 samples.

Results

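The genes examined are those of the proteasome, taken as every row of the deposited expression table whose symbol starts with PSM, a letter from A to G and a digit. The rule found 49 genes of 24580 rows. They are 8 genes of the 20S alpha ring, 3 constitutive catalytic and 4 non-catalytic genes of the 20S beta ring, 3 immunoproteasome genes, the thymus-specific PSMB11, 6 ATPases and 11 other subunits of the 19S cap, 3 cap chaperones, 4 activators, the inhibitor PSMF1 and 4 chaperones of the core. The remaining gene, PSMC3IP, matches the rule by its symbol but encodes a recombination protein that binds PSMC3 and is no proteasome subunit. RNA was sequenced from LoVo, an established human colorectal adenocarcinoma line labelled wildtype, and from LoVo-HM, labelled as high-metastatic and taken here as a subline of it. Neither group was treated, each had 3 libraries, and no label tells how the subline was obtained, whether it is 1 clone, or whether the libraries came from separate cultures. The p-values therefore measure only the spread between these libraries, which may be technical.

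The proteasome degrades proteins tagged with ubiquitin. Its 20S core is a barrel of outer alpha rings and inner beta rings, and PSMB6, PSMB7 and PSMB5 carry the caspase-like, trypsin-like and chymotrypsin-like sites. In cells exposed to interferon-gamma, and in many immune cells at rest, PSMB9, PSMB10 and PSMB8 are built into new cores in place of PSMB6, PSMB7 and PSMB5. The resulting immunoproteasome favours the cleavage of peptides that suit MHC class I molecules. The 19S cap binds, unfolds and threads ubiquitinated substrates, while the PSME activators open the core without ubiquitin.

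Levels are given as FPKM (fragments mapped to a gene, per kilobase of its transcript and scaled to the size of the library). Being per length, they allow only a rough comparison between genes, as the gene models and counting behind them are not given. Every difference was taken on a log2(FPKM + 1) scale, with the LoVo mean subtracted from that of LoVo-HM, and is followed by its SE. The limma test was run on 14487 genes, and its p-values were adjusted over all of them by the Benjamini-Hochberg method. Of the 49 genes 47 were tested, since PSMA8, a testis-specific alpha subunit, and PSMB11 were listed at 0 in all 6 libraries. The 49 genes held 0.677 to 0.703% of all FPKM in LoVo libraries and 0.671 to 0.689% in LoVo-HM libraries. All 6 epithelial markers were detected, 3 called higher and 3 lower, from -2.46 for CDH1 to 1.88 for KRT19 (KRT8, at 0.17, turned to -0.01 under quantile normalization). Of 8 intestinal markers CDX1, VIL1 and GPA33 were listed at 0 in every library, and the 2 that could be tested were called higher, CDX2 (8.39 FPKM in LoVo, against 14.7 in LoVo-HM) and KRT20 (listed at 0 in LoVo, against 2.92 in LoVo-HM). Of 10 immune cell markers PTPRC and LAPTM5 were at 0 in every library. The sum of the immune list was 8.87 to 10.1 FPKM in LoVo, against 12.0 to 13.5 in LoVo-HM, most of it CORO1A (7.90 and 11.2 FPKM), while CD53 was at 0.130 and 0.00371 FPKM. Sums of 5 fibroblast markers were 4.83 to 6.35 FPKM in LoVo, against 4.73 to 5.71 in LoVo-HM, with COL1A2 at 0, and sums of 4 endothelial markers did not exceed 0.109 FPKM. The part of any of these cell types in the results was not tested.

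RNA of the 3 immunoproteasome subunits and of the activators PSME1, PSME2 and PSME4 fell in LoVo-HM, while the summed RNA of the constitutive core and cap stayed at 99.6% of its LoVo level. Of the 47 tested genes 15 passed an adjusted p of 0.05, or 31.9%, against 44.9% of all tested genes. Of these, 4 were higher (8.51%, against 21.8% of all genes) and 11 lower (23.4%, against 23.1%); without LoVo-HM replicate 1 the lower genes numbered 7. The share called was thus lower among proteasome genes than among all tested genes. The median difference was -0.016 over the 47 genes and 0.003 over all tested genes, and the median size of the difference without its sign was 0.13 against 0.21. For 23 of the 47 genes the 3 values of one line lay all above those of the other, or 48.9%, against 55.0% of all tested genes. A called difference of at least 0.5 was seen in 4 proteasome genes, against 18.6% of all tested genes, and each was lower in LoVo-HM: PSMB9, PSMB8, PSMA6 and PSME2. None was higher by as much, against 7.14% of all tested genes, and 11.4% were lower by as much.

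**Figure D1:**
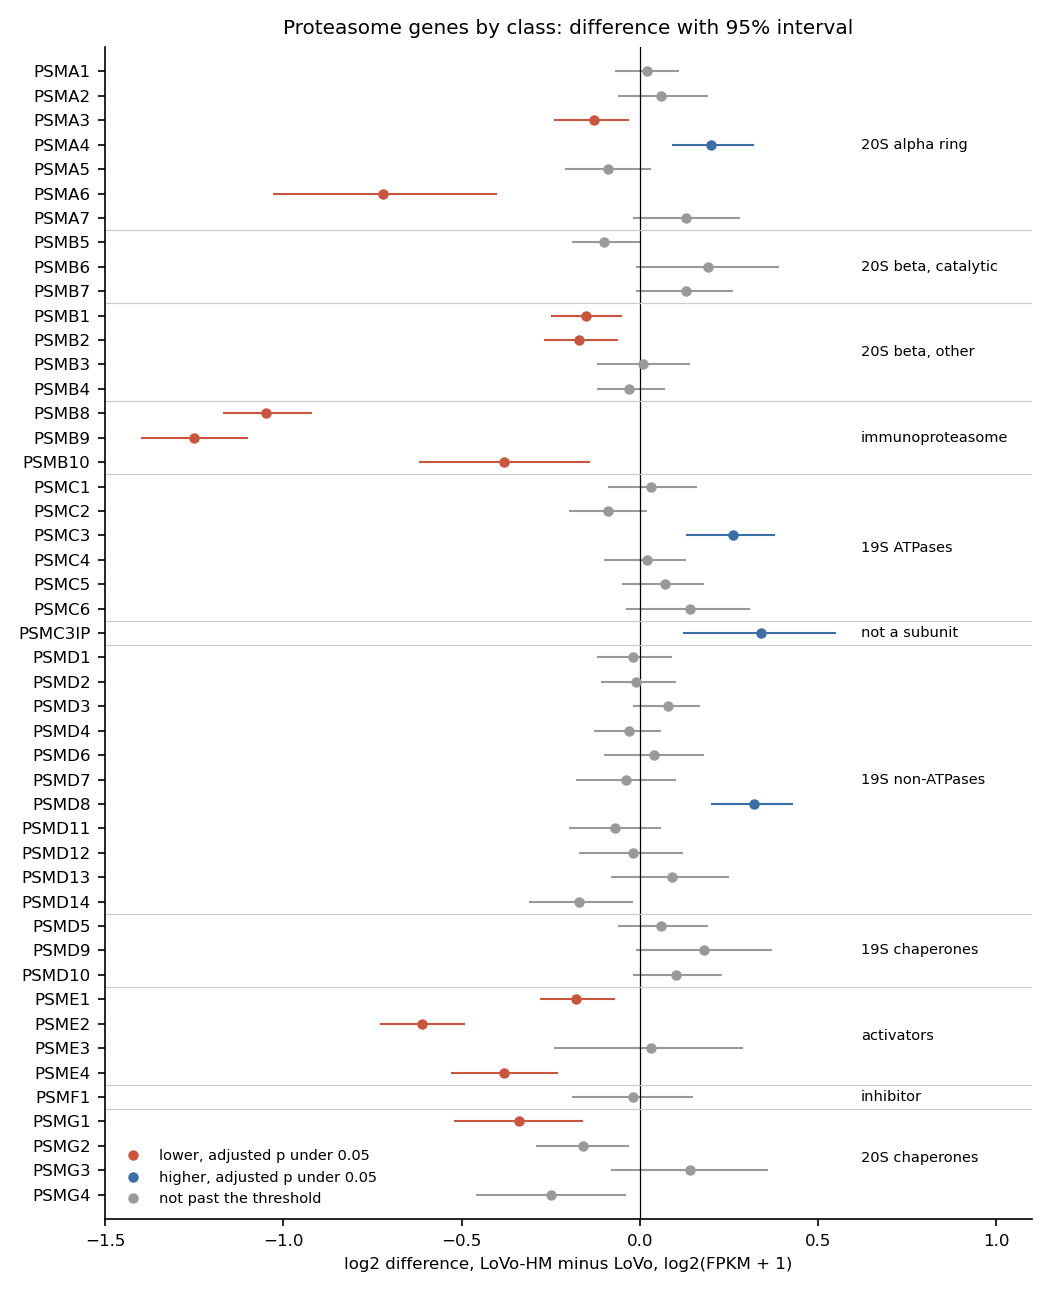
Log2 difference (LoVo-HM minus LoVo, log2(FPKM + 1) scale) of the 47 tested proteasome genes, grouped by class, with the 95% interval from limma as a line and the call as colour. PSMB9 at -1.25 and PSMB8 at -1.05 lie farthest to the left, and most core and cap genes sit near 0.

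The immunoproteasome genes stood in the order PSMB8, PSMB9, PSMB10 in both lines, from highest to lowest, and each pair of neighbours in that order was separated in every library. PSMB8, the inducible chymotrypsin-like subunit, was at 59.2, 56.2 and 54.5 FPKM in the LoVo libraries and at 25.8, 27.9 and 27.1 FPKM in the LoVo-HM libraries. The groups were far apart, with means of 56.6 ± 2.41 and 26.9 ± 1.07 FPKM (SD, n = 3 each), so that 47.5% of the LoVo level remained. The log2 difference was -1.05 ± 0.053 (limma adjusted p = 8.94e-07). PSMB9, the inducible subunit that replaces the caspase-like PSMB6, read 37.6, 42.2 and 36.5 FPKM in LoVo, against 15.9, 16.0 and 15.2 in LoVo-HM. It had the largest fall of any proteasome gene, from 38.7 ± 3.04 to 15.7 ± 0.424 FPKM (SD, n = 3 each), a log2 difference of -1.25 ± 0.064 (limma adjusted p = 1.00e-06). Both fell by at least 1 log2 unit, as 4.18% of all tested genes did. In the ranking of all tested genes, 2.93% had a difference as low as that of PSMB9 and 3.92% as low as that of PSMB8.

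PSMB10, the inducible trypsin-like subunit, changed less and from a lower level. It was at 10.2, 8.52 and 10.3 FPKM in LoVo, against 7.92, 7.53 and 6.10 in LoVo-HM. The groups did not overlap, but the lowest LoVo and highest LoVo-HM libraries were close. The log2 difference was -0.38 ± 0.106 (limma adjusted p = 0.0177), and 16.1% of all tested genes had one as low. Without LoVo replicate 1 the adjusted p from limma was 0.0582, and without LoVo replicate 3 it was 0.0592, so the call for PSMB10 rests on these libraries. The 3 genes summed to 105 ± 3.31 FPKM in LoVo, against 49.8 ± 1.49 in LoVo-HM (SD, n = 3 each). In bulk RNA such as this, fewer cells expressing a gene and less of its RNA per cell cannot be told apart.

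The constitutive subunits that the inducible ones replace did not pass the test in either direction. PSMB5 was at 82.2, 83.6 and 79.9 FPKM in LoVo, against 76.7, 77.8 and 75.0 in LoVo-HM, which do not overlap (-0.10 ± 0.041, limma adjusted p = 0.0837). PSMB6 read 81.2, 77.5 and 67.4 FPKM in LoVo, against 85.6, 94.7 and 78.0 in LoVo-HM, with overlap (0.19 ± 0.086, limma adjusted p = 0.105). PSMB7 read 108, 112 and 98.2 FPKM against 120, 117 and 110 FPKM, also with overlap (0.13 ± 0.059, limma adjusted p = 0.110). Their 95% intervals ran from -0.19 to -0.00 for PSMB5, from -0.01 to 0.39 for PSMB6 and from -0.01 to 0.26 for PSMB7. Without LoVo-HM replicate 3 PSMB6 was called higher (0.26, limma adjusted p = 0.0441), and with libraries rescaled to the same total PSMB7 was (0.16, limma adjusted p = 0.0484). In every library each constitutive subunit exceeded the inducible one it pairs with.

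**Figure D2:**
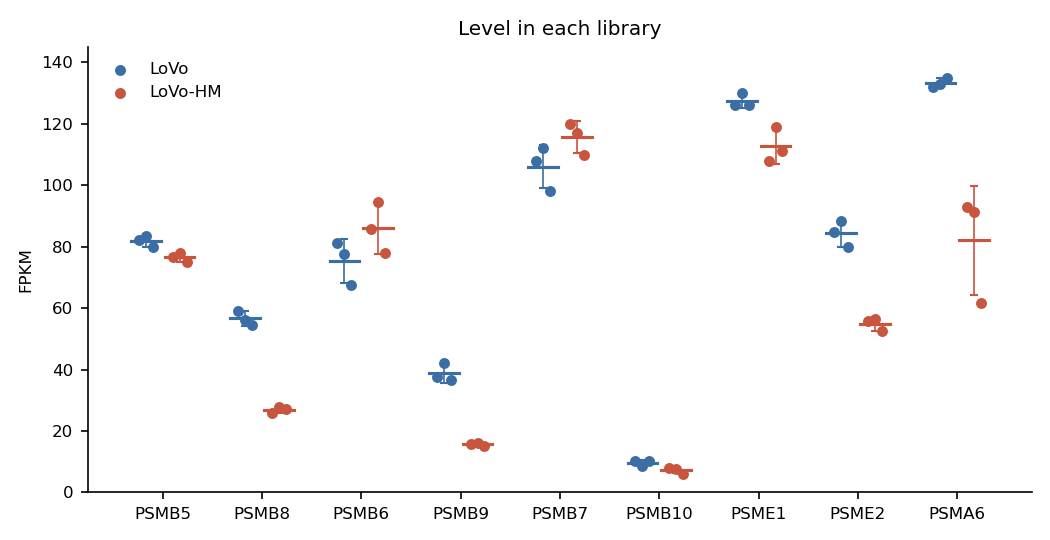
FPKM of 9 proteasome genes in each library (points), with the group mean (wide bar) and SD (thin line, n = 3 libraries per group), LoVo in blue and LoVo-HM in red. PSMB8, PSMB9, PSME2 and PSMA6 show separate groups with a wide gap, while PSMB6 and PSMB7 overlap; 1 LoVo-HM library of PSMA6 lies at 61.7 FPKM, apart from the others.

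The balance within each catalytic pair was taken as the log2 ratio of inducible to constitutive subunit in each library. For PSMB8 to PSMB5 it was -0.47, -0.56 and -0.54 in LoVo and -1.54, -1.45 and -1.43 in LoVo-HM, a difference of -0.95. The ratio of PSMB9 to PSMB6 went from -1.09, -0.86 and -0.87 to -2.36, -2.50 and -2.29, a difference of -1.44. That of PSMB10 to PSMB7 was -3.29, -3.57 and -3.14 in LoVo and -3.76, -3.80 and -3.97 in LoVo-HM, a difference of -0.51. No pair had overlapping groups. The two-sided exact permutation p was 0.1 for each of the 3 pairs, the smallest that 3 libraries against 3 allow, and 0.1 after Benjamini-Hochberg adjustment over the 3 pairs. This design cannot pass a threshold of 0.05 by that test.

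Expressed as a share of the summed FPKM of all 6 catalytic genes, the inducible subunits made up 28.3, 28.1 and 29.2% in the LoVo libraries and 14.9, 15.1 and 15.5% in the LoVo-HM libraries. The means were 28.5 ± 0.578% and 15.2 ± 0.320% (SD, n = 3 each), a difference of -13.4 percentage points with a spread under 1 point in either group. Multiplying a library by a constant leaves this share as it is, and quantile normalization gave a difference of -13.2 points. PSMB8 held 40.9 ± 0.886% of its pair with PSMB5 in LoVo and 26.0 ± 0.777% in LoVo-HM (SD, n = 3 each). PSMB9 went from 34.0 ± 2.04% to 15.4 ± 0.945% of its pair (SD, n = 3 each). PSMB10 was the minor partner in both lines, at 8.37 ± 1.22% and 5.82 ± 0.504% (SD, n = 3 each).

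**Figure D3:**
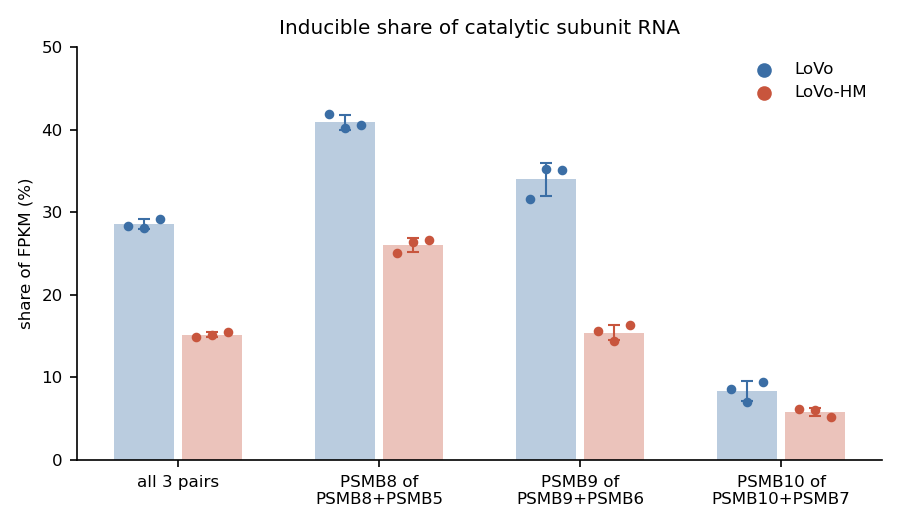
Share of FPKM (%) held by the inducible catalytic subunits, for all 3 pairs together and for each pair, with bars as group means, lines as SD and points as libraries (n = 3 per group). The share over all 3 pairs was 28.1 to 29.2% in LoVo and 14.9 to 15.5% in LoVo-HM.

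Promoter sequence is shown for the immunoproteasome and interferon-responsive activator genes, which lie among the lowered members, with PSMB5 for contrast. Each is 300 bases from RefSeq on GRCh38.p14, from 250 bases before to 50 after an annotated start, and is read 5′ to 3′ on the strand of its gene. The windows are chr6:32843998-32844297 (minus strand) for PSMB8, chr6:32853942-32854241 (plus) for PSMB9, chr16:67936801-67937100 (minus) for PSMB10, chr14:24135944-24136243 (plus) for PSME1, chr14:24146561-24146860 (minus) for PSME2 and chr14:23034851-23035150 (minus) for PSMB5. Capitals mark matches, on either strand, to the letters of the interferon-stimulated response element (GAAA, any 2 bases, GAAA) or of the gamma-activated site (TTCNNNGAA, which reads the same on both strands).
PSMB8: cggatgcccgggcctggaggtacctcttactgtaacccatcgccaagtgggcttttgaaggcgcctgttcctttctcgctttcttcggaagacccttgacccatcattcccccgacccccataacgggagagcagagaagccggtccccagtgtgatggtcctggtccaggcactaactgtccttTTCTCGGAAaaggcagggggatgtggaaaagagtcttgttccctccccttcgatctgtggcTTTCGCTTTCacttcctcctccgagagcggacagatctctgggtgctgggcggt
PSMB9: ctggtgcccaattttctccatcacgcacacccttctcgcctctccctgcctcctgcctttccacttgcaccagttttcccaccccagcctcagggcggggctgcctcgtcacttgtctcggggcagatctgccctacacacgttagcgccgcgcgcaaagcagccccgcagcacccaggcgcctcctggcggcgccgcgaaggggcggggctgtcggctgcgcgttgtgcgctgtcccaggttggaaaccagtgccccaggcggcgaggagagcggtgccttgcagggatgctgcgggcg
PSMB10: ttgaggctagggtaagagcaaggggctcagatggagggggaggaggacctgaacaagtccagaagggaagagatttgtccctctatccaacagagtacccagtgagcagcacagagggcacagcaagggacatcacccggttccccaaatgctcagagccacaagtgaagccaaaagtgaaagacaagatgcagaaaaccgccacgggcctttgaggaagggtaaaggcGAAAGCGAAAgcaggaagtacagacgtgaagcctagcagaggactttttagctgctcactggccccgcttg
PSME1: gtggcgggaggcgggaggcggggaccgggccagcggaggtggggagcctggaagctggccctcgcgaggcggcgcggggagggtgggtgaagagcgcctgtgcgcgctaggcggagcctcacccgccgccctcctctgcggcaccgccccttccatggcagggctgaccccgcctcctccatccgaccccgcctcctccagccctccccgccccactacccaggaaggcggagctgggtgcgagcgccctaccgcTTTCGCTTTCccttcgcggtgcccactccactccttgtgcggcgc
PSME2: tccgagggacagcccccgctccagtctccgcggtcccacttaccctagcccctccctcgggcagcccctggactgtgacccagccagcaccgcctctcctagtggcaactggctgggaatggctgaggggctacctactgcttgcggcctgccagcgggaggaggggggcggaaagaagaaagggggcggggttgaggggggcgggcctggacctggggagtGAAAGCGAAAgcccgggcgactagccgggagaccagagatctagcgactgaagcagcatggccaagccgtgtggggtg
PSMB5: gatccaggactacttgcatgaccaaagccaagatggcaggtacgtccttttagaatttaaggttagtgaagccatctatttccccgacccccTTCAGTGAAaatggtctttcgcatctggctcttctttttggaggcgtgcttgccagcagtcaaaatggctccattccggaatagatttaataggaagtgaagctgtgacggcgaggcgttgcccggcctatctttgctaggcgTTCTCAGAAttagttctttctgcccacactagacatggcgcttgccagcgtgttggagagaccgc

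The table of promoters held 43 of the 49 genes in 53 windows, and PSMA7, PSMB1, PSMB6, PSMB7, PSMD4 and PSMG3 had no entry. Response element letters were found in 7 of the 53 windows (13.2%) and in 3.57% of all 35116 windows of the same length. The 7 genes were PSMB8, PSMB10, PSME1, PSME2, PSMG4, PSMA4 and PSMB4. In the first 5 of these the matched letters were the same, GAAAGCGAAA or its reverse complement TTTCGCTTTC, which 9.43% of the proteasome windows and 0.0997% of all windows hold. These exact letters, a special case of the first motif, were searched only after its matches had been seen. They were chosen because these 5 genes share them, so their share among proteasome windows follows from that choice and measures no enrichment. The match began 21 bases before the start in PSMB10, 28 before it in PSME2, 33 before it in PSMG4, 4 before it in PSMB8 and at base 6 of the transcript in PSME1. Of these 5 genes 4 were called lower, against 23.1% of all tested genes, a count given only as a description. PSMG4, a chaperone of core assembly, was at 15.0 ± 0.388 FPKM in LoVo, against 12.6 ± 1.79 in LoVo-HM (SD, n = 3 each). Its limma adjusted p was 0.0563, or 0.00765 without LoVo-HM replicate 2. The lowered genes PSMA3, PSMA6, PSMB2, PSMB9, PSME4 and PSMG1 have windows but no match to the response element. PSMA4, which rose, and PSMB4, which did not pass the test, hold other letters of the same motif, 240 and 68 bases before their starts.

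The PSMB9 window has neither motif. The same letters GAAAGCGAAA, on either strand, lie just outside it at chr6:32853823-32853832 in the promoter window of TAP1. PSMB8 and PSMB5 have 2 windows each, and the windows not shown have neither motif. Gamma-activated site letters occurred in 8 windows (15.1%, against 7.66% of all windows), 1 in PSMB8 and a pair in PSMB5, which did not pass the test. The core of the antioxidant response element (TGACNNNGC), which NRF1 and NRF2 bind in proteasome promoters, occurred in 15 windows, or 28.3% against 13.3%. The NF-kB letters, GGGA, any 1 base and TTTCC, occurred in 0 of the 53 windows and in 0.558% of all windows. A match describes letters only, and binding was not measured.

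By position, PSMB8 and PSMB9 are neighbours on opposite strands in the MHC class II region of chromosome 6 (PSMB8 at chr6:32840717-32844703 on the minus strand, PSMB9 at chr6:32844136-32859585 on the plus strand; GENCODE 29, GRCh38). TAP2 and TAP1, which together encode the transporter that moves proteasome products into the endoplasmic reticulum, lie beside them. The GENCODE span of PSMB9 begins beside PSMB8 and covers TAP1, whereas the RefSeq start used for its promoter lies on the far side of TAP1, beside the TAP1 start. TAP1 was at 45.1 ± 1.74 FPKM in LoVo, against 14.0 ± 0.508 in LoVo-HM (SD, n = 3 each; -1.62 ± 0.054, limma adjusted p = 6.29e-08). TAP2 was at 21.6 ± 0.674 and 13.4 ± 0.529 FPKM (SD, n = 3 each; -0.65 ± 0.056, limma adjusted p = 2.82e-05). The fall was therefore shared by all 4 genes of this antigen-processing cluster. HLA-DOB, beyond TAP2, did not pass the test (-0.21 ± 0.120, limma adjusted p = 0.185). AL669918.1, whose span overlaps TAP2 and HLA-DOB, was lower, from 1.89 to 0.326 FPKM (-1.16 ± 0.197, limma adjusted p = 0.00156). On the other side HLA-DMB was lower too (-4.66 ± 0.092, limma adjusted p = 2.98e-09). PSMB10 is elsewhere, at chr16:67934502-67937087 on the minus strand, and 5 of its 6 nearest tested neighbours did not pass the test; DUS2 was lower. Annotated exons of PSMB8 share 20.6% of their bases with PSMB8-AS1 or PSMB9 on the opposite strand, and those of PSMB10 share 34.8% with AC040162.1 on the same strand, a readthrough model at 2.10 FPKM in LoVo, against 1.73 in LoVo-HM. Whether strand was used in counting is not stated, so reads from these overlaps cannot be told apart.

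Among the activators, both genes of the interferon-inducible 11S ring fell, unequally. PSME2, its beta subunit, was at 84.9, 88.4 and 79.8 FPKM in LoVo, against 55.8, 56.4 and 52.4 in LoVo-HM, groups far apart (-0.61 ± 0.053, limma adjusted p = 2.82e-05). PSME1, its alpha subunit, was at 126, 130 and 126 FPKM in LoVo, against 108, 119 and 111 in LoVo-HM, a smaller gap (-0.18 ± 0.047, limma adjusted p = 0.0148). Without LoVo replicate 2 the limma adjusted p of PSME1 was 0.0579, and without LoVo-HM replicate 1 it was 0.0604. The FPKM ratio of PSME2 to PSME1 went from 0.675, 0.682 and 0.631 in LoVo to 0.518, 0.473 and 0.472 in LoVo-HM, with no overlap. PSME1 (chr14:24136158-24138967, plus strand) and PSME2 (chr14:24143362-24147570, minus strand) are neighbours with EMC9 between them, and neither EMC9 (0.14 ± 0.161, limma adjusted p = 0.508) nor RNF31 on the far side (0.05 ± 0.079, limma adjusted p = 0.655) passed the test.

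PSME4, the large nuclear activator PA200, also fell, although it is not one of the interferon-inducible pair. Its values were 29.3, 30.8 and 32.8 FPKM in LoVo, against 23.1, 22.5 and 25.3 in LoVo-HM, without overlap (-0.38 ± 0.065, limma adjusted p = 0.00165). PSME3, the nuclear PA28-gamma, had no consistent direction, with 90.6, 94.5 and 74.2 FPKM in LoVo, against 81.1, 79.9 and 104 in LoVo-HM (0.03 ± 0.117, limma adjusted p = 0.869). Its 95% interval, -0.24 to 0.29, is the widest of the activators, with LoVo replicate 3 low and LoVo-HM replicate 3 high. PSMF1, which encodes the inhibitor PI31, did not pass the test (-0.02 ± 0.073, limma adjusted p = 0.842).

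The constitutive core and cap were close to level between the lines. Of 14 core genes 1 was called higher, 4 lower and 9 neither, and their summed FPKM was 1351 ± 35.3 in LoVo and 1311 ± 54.0 in LoVo-HM (SD, n = 3 each). Of 17 cap genes 2 were called higher and 0 lower, with sums of 1027 ± 12.5 and 1057 ± 18.5 FPKM (SD, n = 3 each). Among all tested genes 21.8% were called higher and 23.1% lower. Over core and cap, 22.6% were called and the median size of the difference was 0.09, against 44.9% and 0.21 for all tested genes. For the 24 core and cap genes that did not pass the test, every 95% interval lay between -0.31 (PSMD14) and 0.39 (PSMB6), which leaves room for changes of that size. Levels within the core differed by 6.72 times in LoVo and 7.87 times in LoVo-HM, from PSMA5 (25.5 and 23.8 FPKM) to PSMA7 (171 and 187 FPKM), although each subunit is built into the core in equal number. In the cap the range was from PSMC1 (23.9 and 24.4 FPKM) to PSMD2 (127 and 126 FPKM). PSMC1 shares 75.8% of its exonic bases with NRDE2 on the opposite strand and has 13 named pseudogenes. How reads were divided between these is not stated.

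**Figure D4:**
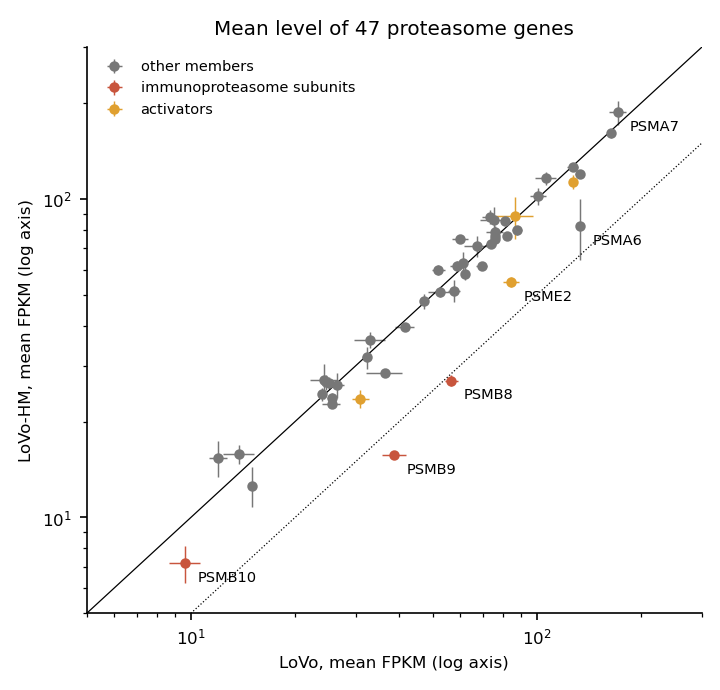
Mean FPKM of the 47 tested proteasome genes in LoVo (x) and LoVo-HM (y), both on log axes, with SD (n = 3 libraries per group); the solid line marks equal levels and the dotted line 2-fold lower in LoVo-HM. PSMB8 and PSMB9 lie below the dotted line, PSME2 and PSMA6 between the lines, and the remaining genes nearer to the solid line.

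The exception in the core was PSMA6, an alpha-ring subunit with no known inducible form. It was at 132, 133 and 135 FPKM in LoVo, against 93.0, 91.4 and 61.7 in LoVo-HM. All LoVo-HM libraries were below all LoVo libraries, and LoVo-HM replicate 3 was lowest. The log2 difference was -0.72 ± 0.136 (limma adjusted p = 0.00290), and -0.53 without LoVo-HM replicate 3 (limma adjusted p = 4.43e-05). Against the mean of the other 6 alpha subunits in the same library, PSMA6 stood at 159, 164 and 170% in LoVo and at 108, 107 and 75.9% in LoVo-HM. A readthrough model on the same strand, AL121594.1, covers 14.1% of its exonic bases and read 10.6, 10.6 and 6.14 FPKM in LoVo, against 10.3, 4.32 and 25.3 in LoVo-HM, highest in the library where PSMA6 was lowest. PSMA6 and this model summed to 142, 144 and 141 FPKM in LoVo, against 103, 95.7 and 87.0 in LoVo-HM, still without overlap and closer together than PSMA6 alone. The upstream gene KIAA0391, whose span overlaps that of AL121594.1, read 19.4, 15.3 and 24.7 FPKM in LoVo, against 12.6, 20.9 and 6.50 in LoVo-HM. It was lowest in LoVo-HM replicate 3 and did not pass the test (limma adjusted p = 0.155). PSMA6 also has 4 named pseudogenes, and no source used here tells how reads were divided between such copies.

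The other called core genes moved by small amounts. In the alpha ring PSMA4 rose from 51.9 ± 2.19 to 59.9 ± 2.25 FPKM (SD, n = 3 each; 0.20 ± 0.051, limma adjusted p = 0.0108). PSMA3 fell by 0.13 on the log2 scale (limma adjusted p = 0.0409), a call that 7 of 16 alternative settings lost, among them those without LoVo replicate 2 or 3 and without LoVo-HM replicate 1 or 2, with limma adjusted p up to 0.122. In the beta ring, among subunits that carry no active site, PSMB1 fell from 133 ± 4.19 to 120 ± 3.40 FPKM (SD, n = 3 each; -0.15 ± 0.043, limma adjusted p = 0.0191). PSMB2 fell from 69.3 ± 2.67 to 61.6 ± 1.37 FPKM (SD, n = 3 each; -0.17 ± 0.046, limma adjusted p = 0.0169). Without LoVo replicate 1 the limma adjusted p was 0.0685 for PSMB1 and 0.0616 for PSMB2, and without LoVo-HM replicate 1 it was 0.0775 and 0.0518. Leaving out LoVo replicate 2 also lost the call for PSMB1 (limma adjusted p = 0.0566). PSMB3 and PSMB4 did not pass the test, at 0.01 ± 0.058 and -0.03 ± 0.042.

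In the cap the called genes rose. PSMD8, a subunit of the lid of the cap, was at 63.3, 57.2 and 59.4 FPKM in LoVo, against 75.8, 73.7 and 75.0 in LoVo-HM, without overlap (0.32 ± 0.049, limma adjusted p = 0.000908). PSMC3, an ATPase of the ring that unfolds substrates, was at 76.2, 75.3 and 68.8 FPKM in LoVo, against 84.6, 92.6 and 86.5 in LoVo-HM (0.26 ± 0.056, limma adjusted p = 0.00565). The other 5 ATPases differed by -0.09 to 0.14 and did not pass, except that PSMC6 did without LoVo replicate 3 (0.21, limma adjusted p = 0.0352). PSMD14 itself, which removes ubiquitin chains as substrates enter, was at 56.3, 60.4 and 56.5 FPKM in LoVo, against 49.5, 48.6 and 56.2 in LoVo-HM, groups that nearly touch (-0.17 ± 0.063, limma adjusted p = 0.0624, or 0.00900 without LoVo-HM replicate 3). The ubiquitin receptor PSMD4 (-0.03 ± 0.042) and the scaffolds PSMD1 (-0.02 ± 0.045) and PSMD2 (-0.01 ± 0.045) were among the smallest differences. The cap chaperones PSMD5, PSMD9 and PSMD10 differed by 0.06, 0.18 and 0.10 and did not pass the test, except for PSMD9 without LoVo replicate 1 (0.26, limma adjusted p = 0.0322).

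Of the chaperones that assemble the core, PSMG1 fell and its partner PSMG2 did not pass the test. PSMG1 read 32.8, 41.3 and 35.5 FPKM in LoVo, against 28.4, 28.9 and 28.0 in LoVo-HM, without overlap (-0.34 ± 0.079, limma adjusted p = 0.00737). PSMG2 went from 25.5 ± 1.55 to 22.7 ± 0.609 FPKM (SD, n = 3 each; -0.16 ± 0.058, limma adjusted p = 0.0518, or 0.0457 without LoVo replicate 2). PSMG3 differed by 0.14 ± 0.094 (limma adjusted p = 0.263), and its partner PSMG4 was at 83.6% of its LoVo level and did not pass the test. PSMC3IP, the gene that is no subunit, read 12.4, 11.1 and 12.4 FPKM in LoVo, against 17.5, 15.4 and 13.5 in LoVo-HM (0.34 ± 0.094, limma adjusted p = 0.0181, or 0.0652 without LoVo replicate 2 and 0.0569 without LoVo-HM replicate 1).

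Other genes of the same routes were read from fixed lists. Of 12 further proteasome proteins 1 was called, against 44.9% of all tested genes. It was ZFAND5, a ubiquitin-binding stimulator of the proteasome (0.35 ± 0.049, limma adjusted p = 0.000501). POMP, the chaperone that matures new cores, did not pass (-0.11 ± 0.046, limma adjusted p = 0.0875). Of 8 tested genes of the interferon-gamma route 5 were lower and 0 higher, against 23.1 and 21.8% of all tested genes. The lower genes were the receptor chains IFNGR1 (-0.86 ± 0.048, limma adjusted p = 1.62e-06) and IFNGR2 (-0.16 ± 0.054, 0.0404), the transcription factors IRF1 (-0.39 ± 0.076, 0.00356) and IRF2 (-0.91 ± 0.066, 9.11e-06), and NLRC5, the activator of MHC class I genes (-1.03 ± 0.076, 1.03e-05). The call for IFNGR2 was lost without LoVo replicate 1 (limma adjusted p = 0.116), LoVo replicate 2 (0.112), LoVo-HM replicate 1 (0.125) or LoVo-HM replicate 3 (0.0770). IFNG itself was listed at 0 in all 6 libraries. The median over the 8 genes was -0.27, against 0.003 for all tested genes.

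Of 10 tested genes for peptide trimming and transport 4 were lower and 1 higher, against 23.1 and 21.8% of all tested genes, and 44.9% called in either direction. The lower ones act in or at the endoplasmic reticulum: TAP1, TAP2 and the aminopeptidases ERAP1 (-1.03 ± 0.094, limma adjusted p = 3.91e-05) and ERAP2 (-0.46 ± 0.110, limma adjusted p = 0.00882). Of the 6 cytosolic peptidases the bleomycin hydrolase BLMH rose (0.35 ± 0.072, limma adjusted p = 0.00444) and 5 did not pass the test. The list's median was -0.03.

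Of 8 genes around NRF1 and NRF2, the factors that raise transcription of proteasome subunits when the proteasome is impaired or under oxidative stress, 4 were lower and 1 higher, again against 23.1 and 21.8% of all tested genes. NFE2L1, which encodes NRF1, fell from 45.4 ± 0.605 to 34.7 ± 0.872 FPKM (SD, n = 3 each; -0.38 ± 0.045, limma adjusted p = 0.000183). NGLY1, the glycanase that activates NRF1, fell too (-0.37 ± 0.090, limma adjusted p = 0.00975), as did the small MAF partners MAFF (-0.91 ± 0.092, limma adjusted p = 7.65e-05) and MAFK (-0.33 ± 0.095, limma adjusted p = 0.0205, or 0.0618 without LoVo replicate 1 and 0.0629 without LoVo-HM replicate 3). KEAP1, the repressor of NRF2, rose (0.22 ± 0.057, limma adjusted p = 0.0128). The median of the list was -0.20, and that of the constitutive core and cap genes was 0.010.

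**Figure D5:**
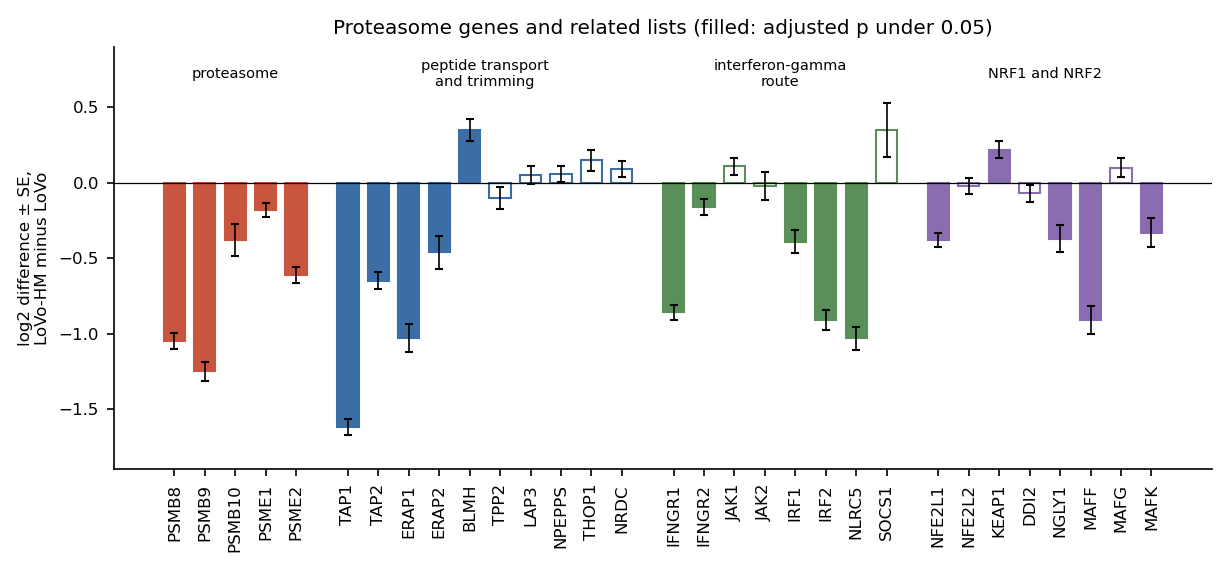
Log2 difference ± SE (LoVo-HM minus LoVo, log2(FPKM + 1) scale, n = 3 libraries per group) of 5 proteasome genes and of the tested genes of 3 lists; filled bars passed an adjusted p of 0.05 and open bars did not. TAP1 reached -1.62 and NLRC5 -1.03, while the cytosolic peptidases to the right of ERAP2 lie at or above -0.10.

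Upstream of the proteasome, 2 of 11 tested ubiquitin shuttle and unfoldase genes were higher, FAF1 (0.23 ± 0.066, limma adjusted p = 0.0211) and FAF2 (0.19 ± 0.053, limma adjusted p = 0.0204), and UBQLN4 was lower (-0.21 ± 0.054, limma adjusted p = 0.0119). Of all tested genes 44.9% were called, 21.8% as higher and 23.1% as lower. The call for FAF1 was lost without LoVo replicate 2 or 3 or LoVo-HM replicate 2 or 3 (limma adjusted p up to 0.0692), and that for FAF2 without LoVo replicate 3 (0.0697) or LoVo-HM replicate 2 (0.0586). Of 5 ubiquitin and E1 genes 2 were called, both higher, against the same 44.9%. UBA1, the main ubiquitin-activating enzyme, rose (0.23 ± 0.038, limma adjusted p = 0.00147). The polyubiquitin gene UBB was called higher (0.12 ± 0.034, limma adjusted p = 0.0193), but quantile normalization turned its sign and leaving out any library except LoVo-HM replicate 2 or 3 lost the call (limma adjusted p = 0.0504 to 0.0673).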

How the data were processed

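Per the labels' protocols, Trizol was used to extract RNA from both lines and the TruSeq RNA kit of Illumina to prepare 6 libraries. The submitters' processing notes name GRCh38. Expression was deposited by the authors as FPKM per gene, 1 column per library. For the aligner, counter, annotation release and strand setting the answer is not given in the sources used here. Read depth is unknown (values under 0.3 FPKM showed no steps worth 1 read), so no counting intervals are given and no count model was used.

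The deposited values were not rescaled and were log-transformed after adding a pseudocount of 1. A gene was tested if it averaged 0.5 FPKM or more across libraries. The test was limma 3.58.1 in R 4.3.3, two-sided, with an intensity trend, and an adjusted p under 0.05 was called. Ratios within catalytic pairs were compared by an exact permutation test in scipy 1.17.1. The fit was tested on simulated data. It recovered 14, 60, 88 and 100% of changes of 0.25, 0.5, 1 and 2 log2 units, and 3.68% of its calls were false. Far fewer genes were changed in the simulation than were called here, so recovery in these data may differ. Positions are from GENCODE 29 and promoters from RefSeq. Every gene matching the symbol rule could be named. From the other lists those past the threshold could be, with IRF1, NLRC5, TAP1, TAP2, POMP and NFE2L1 whatever their result. Markers and IFNG, which could not be tested, are named outside this rule, and the context plot shows every tested gene of its lists. Further, 2 listed genes are not reported here and were left out of the counts of their lists. Members and lists were chosen with earlier results of these data known. Alternatives were other pseudocounts, filters, scalings and variance fits, a replicate block and leaving out each library.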

Additional observations from a re-analysis of the deposited data

How the results depend on the processing

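PSMB8, PSMB9, PSME2, PSMA6, PSME4 and PSMG1 stayed called lower, and PSMA4, PSMC3 and PSMD8 called higher, in all 16 alternative settings, and 24 of the 32 uncalled genes stayed uncalled. With the replicate number as a block, 7 proteasome genes were called higher instead of 4, PSMA7 (limma adjusted p = 0.0325), PSMB6 (0.0248) and PSMB7 (0.0432) being added, while the lower genes again numbered 11. The correlation of deviations over all tested genes between libraries of the same number was -0.00701, 0.0215 and 0.0264, so no pairing by number was seen. Such correlations cannot tell whether libraries of the same number were prepared together. With the variance fitted without a trend, 7 genes were called lower instead of 11. Leaving out each library in turn gave 10 to 18 called genes, 3 to 6 higher and 7 to 12 lower, 2 or 3 of the 3 immunoproteasome genes, and a difference in the inducible share of -13.6 to -13.0 points; the lowest count, 7 lower genes, came without LoVo-HM replicate 1. Quantile normalization turned the sign of UBB (-0.05, limma adjusted p = 0.198) and of KRT8, an epithelial marker (-0.01, limma adjusted p = 0.791). No scaling moved the median of all genes beyond 0.042. Libraries number 3 per group, depth is unknown, and PSMA3, PSMB1, PSMB2, PSMB10, PSMC3IP and PSME1 lost their call in at least 1 setting.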

Other observations

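The exact letters GAAAGCGAAA, on either strand, occur in 35 of 35116 RefSeq promoter windows, at 29 distinct positions, 5 of them in windows of proteasome genes. These letters and the genes below were chosen after values had been seen, so their counts are given as a description. Besides the 5 proteasome genes, 29 gene symbols have such a window, of which 19 were tested: 7 were called lower, 4 higher and 8 neither, against 23.1% lower and 21.8% higher among all tested genes. The lower ones were TAP1, TAP2, ARAP1 (-0.96 ± 0.058), CYP4V2 (-0.64 ± 0.104), ALOXE3 (-0.50 ± 0.107), MYD88 and PARP14. The adaptor MYD88 was at 39.6 ± 5.09 FPKM in LoVo, against 17.8 ± 2.19 in LoVo-HM (SD, n = 3 each, limma adjusted p = 6.04e-05). PARP14 was at 10.7 ± 0.397 and 7.09 ± 0.637 FPKM (SD, n = 3 each, limma adjusted p = 0.000547). The higher ones were GRWD1 (0.30 ± 0.059), FAM111A (0.24 ± 0.085), UBFD1 (0.20 ± 0.055) and ZNF207 (0.13 ± 0.048). The median over the 19 was -0.24, against 0.003 for all tested genes. The position in the PSME2 promoter, chr14:24146629-24146638, also lies in that of RNF31 on the opposite strand. RNF31, which encodes the ubiquitin ligase HOIP, was at 6.32 ± 0.597 FPKM in LoVo, against 6.55 ± 0.135 in LoVo-HM (SD, n = 3 each; limma adjusted p = 0.655), while PSME2 fell to 65.0% of its LoVo level.

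Genes next to lowered proteasome genes included some with far larger differences, also named after their values were seen. Beyond TAP1, the nearest tested neighbours of PSMB9 were HLA-DMB, at 33.2 FPKM in LoVo, against 0.354 in LoVo-HM (-4.66 ± 0.092, limma adjusted p = 2.98e-09), and HLA-DMA, at 79.8 and 2.13 FPKM (-4.70 ± 0.101, limma adjusted p = 4.52e-09), which load peptides onto MHC class II molecules. Downstream of PSMA6, NFKBIA, an inhibitor of NF-kB, was at 75.3 FPKM in LoVo, against 21.1 in LoVo-HM (-1.79 ± 0.057, limma adjusted p = 4.70e-08).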
